A study of Mus musculus with 16 samples.

Results

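The question here is whether fructose in the drinking water went with a different change of hippocampal transcripts in biglycan knockout than in wild-type mice. For each gene this was measured as an interaction, the fructose-minus-water difference in the knockout minus the same difference in wild type. A positive interaction means that the knockout moved higher on fructose than wild type did, and a negative one that it moved lower. All 16 of the 16 libraries entered, and genes were kept where their mean over the libraries was at least 1 FPKM (fragments per kilobase of transcript, a sequencing level corrected for transcript length and library size), which left 12648 of 22572 named genes. Differences are in log2(FPKM + 1), a scale on which genes of low level show less than their true change.

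The hippocampi came from male C57BL/6 mice in 4 groups of 4 libraries. WT water mice were wild type and drank regular water for 6 weeks from 3 months of age. WT fructose mice were wild type and drank 15% (w/v) fructose in water for 6 weeks from 3 months of age. Bgn KO water mice carried the hemizygous knockout Bgn0/- and drank regular water for the same time from the same age. Bgn KO fructose mice carried the same knockout and drank the same fructose solution for the same time from the same age. No other allele or agent is named, and the labels do not restrict the knockout to some cells. RNA was selected by its poly-A tail, copied with random hexamers and sequenced on an Illumina HiSeq. Nothing in the labels states that the replicates of a group are different animals. The p-values therefore speak of the spread between libraries, part or all of which can be technical.

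Biglycan is a matrix proteoglycan of the small leucine-rich family that binds collagen, modulates transforming growth factor beta and bone morphogenetic protein signalling, and as a soluble fragment can engage Toll-like receptors. Dietary fructose is taken up by dedicated transporters and metabolised largely outside the brain, and high intake is linked to insulin resistance. An interaction tests the difference between the responses of both genotypes directly, and carries the error of all 4 groups.

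The libraries differed in ways that the groups do not account for. The depth is unknown because FPKM hold no read numbers, and 12343 to 12885 named genes reached 1 FPKM per library. Replicate 1 of each group stood apart: its root mean square log2 difference from replicates 2 to 4 of the same group was 0.302 to 0.459, against 0.179 to 0.312 among replicates 2 to 4. Bgn KO fructose replicate 4 was 0.295 to 0.312 from replicates 2 and 3 of its group. Markers of hippocampal principal neurons, 19 of 20 of which passed the filter, had mean levels of 4.38 to 4.81 on the log2 scale over all libraries. Markers of choroid plexus and ependyma, a neighbouring tissue, were also present, from 2.23 in the library labelled WT fructose replicate 1 to 5.19 in Bgn KO fructose replicate 4.

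Bgn itself checks the labels by a lower level, since it was not at 0 in any knockout library. Its group means were 15.9 FPKM in WT water, 16.1 in WT fructose, 6.62 in Bgn KO water and 6.39 in Bgn KO fructose. Its FPKM in replicates 1 to 4 was 9.94, 11.7, 17.7 and 24.2 in WT water and 5.42, 20.7, 21.2 and 17.2 in WT fructose. It was 4.46, 7.23, 7.19 and 7.60 in Bgn KO water and 5.02, 6.69, 6.73 and 7.11 in Bgn KO fructose. The knockout libraries all lay below the wild-type ones except that the library labelled WT fructose replicate 1 lay within the knockout range. That library had 14.0 FPKM of the complex I subunit gene Ndufs5, listed at 9.82 to 14.0 in WT and 0 to 0.216 in the knockout. Rn45s, a ribosomal RNA precursor gene at 0 in every knockout library, was at 1085 FPKM there. The same library was the lowest of all for Dcn (5.98 FPKM) and for meningeal markers (1.81 on the mean log2 scale). The interaction of Bgn was 0.02 (SE 0.48), with a 95% interval that reached up to 1.04, and turned negative in several alternatives: it was -0.40 when the library labelled WT fructose replicate 1 was left out, and -0.45 when Bgn KO fructose replicate 4 was left out as well.

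A single gene passed for the interaction. Camk2a, the alpha subunit of calcium/calmodulin-dependent protein kinase II and one of the most abundant kinases of excitatory synapses, was listed at 0 in all WT fructose libraries and high elsewhere. Its FPKM in replicates 1 to 4 was 992, 1558, 1593 and 1346 in WT water, 781, 991, 1203 and 1657 in Bgn KO water, and 1256, 1013, 1671 and 1505 in Bgn KO fructose. Bgn KO fructose overlapped with Bgn KO water, and the WT fructose group lay apart from all others. The test gave a log2 interaction of 10.66 (SE 0.29, limma adjusted p = 2.98e-12). Its size is set by the pseudocount and ran from 10.31 to 13.98 over the alternatives, the highest with a pseudocount of 0.1. No fold is given, because a value of 0 in this kind of file can be a failed estimate as well as a measurement. Which of these holds for Camk2a was not tested.

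The other subunits of the kinase were measured in the same libraries. Camk2b, the beta subunit, had 351, 410, 426 and 414 FPKM in WT water and 498, 393, 439 and 423 in WT fructose, and 365 to 391 in Bgn KO water and 317 to 474 in Bgn KO fructose. Its interaction was -0.14 (SE 0.16), that of the delta subunit Camk2d -0.14 (SE 0.27) and that of the gamma subunit Camk2g -0.01 (SE 0.11). None of the 3 was listed at 0 in any library, and their fructose and water libraries overlapped within each genotype. WT fructose and Bgn KO water did not overlap for Camk2b and Camk2d. Pdgfrb and Arsi, picked as genes near Camk2a after the Camk2a values were seen, were not at 0 in WT fructose either. Pdgfrb, a receptor of pericytes, had 4.37 to 6.25 FPKM there and 4.05 to 6.27 in WT water. Arsi, below the filter, had 0.37 to 0.613 and 0.326 to 0.612.

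**Figure D1:**
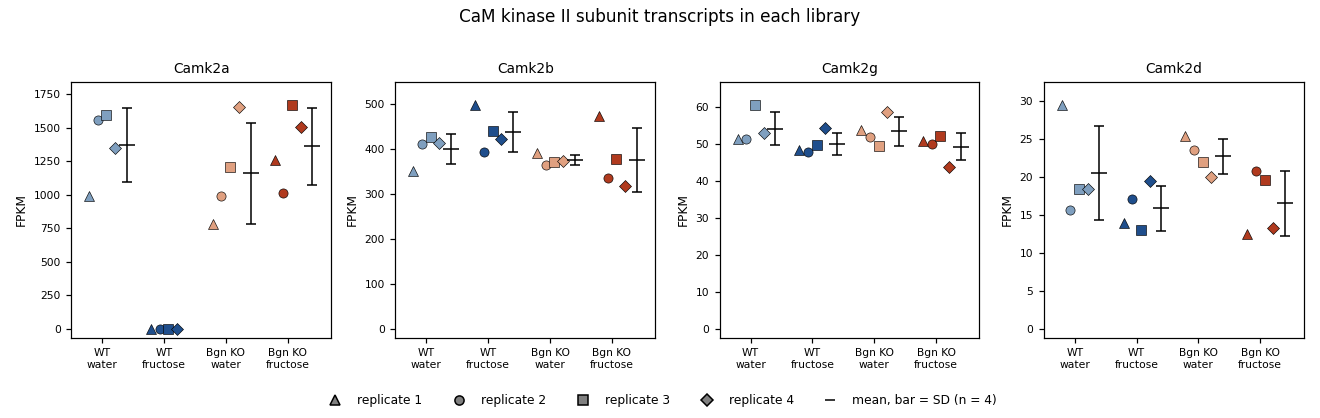
Levels of the 4 subunit genes of CaM kinase II, with FPKM on the vertical axis (a linear axis for each gene) and the 4 groups on the horizontal axis; each symbol is 1 library and its shape the replicate number, and bars are the mean and SD of 4 libraries, left out where all are listed at 0. Camk2a is at 0 in the 4 WT fructose libraries and between 781 and 1671 FPKM in the other 12, while Camk2b, Camk2g and Camk2d are above 0 in all 16.

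Over all genes tested limma called 1 gene with a higher interaction (0.00791% of 12648) and 0 with a lower one (0%) at an adjusted p under 0.05. With a term for the replicate 1 libraries, which is balanced over the groups and leaves the estimates as they are, the count was again 1 (0.00791%) and the gene again Camk2a. The smallest adjusted p of any other gene was 0.9992, or 0.6153 with that term. At an unadjusted p under 0.05 there were 368 genes (2.91%), 196 with a positive and 172 with a negative interaction. This is below the share of 5% that the threshold itself allows when no gene differs. With the term for replicate 1 there were 1024 (8.1%), 465 positive and 559 negative. The count of 368 became 193 without Bgn KO water replicate 2, 213 without Bgn KO water replicate 3, 245 without WT fructose replicate 2 and 197 without Bgn KO fructose replicate 4. It became 700 without Bgn KO water replicate 4, 729 without Bgn KO fructose replicate 1 and 658 without Bgn KO fructose replicate 2.

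The precision sets what these libraries could show. The median SE of an interaction was 0.15, so that its 95% interval reached 0.31 to either side. For 96.4% of genes the whole interval lay within 2-fold of FPKM + 1 in either direction, and for 77.9% within 1.5-fold. For genes of low level these limits stand for larger folds of FPKM itself, so fewer genes exclude a 2-fold interaction in FPKM. At the median SE, an interaction of 1.02 on the log2 scale would have been needed for a gene to pass alone, or 0.74 with the term for replicate 1. The size needed scales with the SE of a gene, and was smaller for genes of smaller SE. Interactions too small to pass are not shown to be absent.

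The fructose difference of each genotype was tested by itself in the same model, without pairing of libraries. Fructose in WT gave 1 call, Camk2a, lower on fructose (0.00791%), with 263 genes at an unadjusted p under 0.05. That count was 128 without WT water replicate 4, 129 without WT fructose replicate 3 and 415 without WT water replicate 2. Fructose in the knockout gave 0 calls (0%), with 1630 genes at an unadjusted p under 0.05. The latter count was 824 without Bgn KO fructose replicate 4, 809 without Bgn KO water replicate 2 and 1078 without Bgn KO water replicate 3. With the replicate number as a block the counts were 825 in WT and 3442 in the knockout. With the choroid plexus, meninges and astrocyte levels as covariates they were 674 in WT and 309 in the knockout, so that their order depends on the model. The knockout differed from WT in 49 genes on water (0.387%) and in 475 on fructose (3.76%). That more genes passed on fructose is not itself a test of the interaction, which passed for Camk2a alone.

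Among the 12647 genes other than Camk2a, the fructose differences of both genotypes, which share no library, were weakly related across genes. Pearson's r was 0.18 and Spearman's rho 0.28, as a description over genes that are not independent, and 60.9% had the same sign in both genotypes. In replicates 2 to 4 these values were 0.06, 0.15 and 55.6%. The median absolute difference was 0.06 in WT and 0.10 in the knockout, and 67.4% of genes had the larger difference in the knockout. That share was 62.2% without Bgn KO fructose replicate 4 and 54.0% without this library and the library labelled WT fructose replicate 1, so that it lay near an even split once both were left out. Of the 367 such genes with an unadjusted interaction p under 0.05, 322 had opposite signs in the genotypes and 313 the larger difference in the knockout, counts that the selection on the interaction favours and that carry no test.

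**Figure D2:**
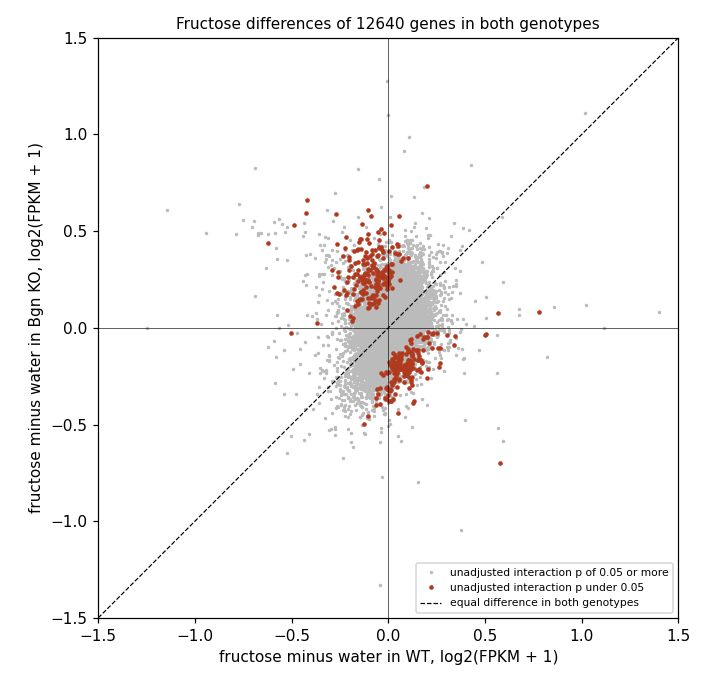
Fructose-minus-water difference in WT (horizontal axis) and in Bgn KO (vertical axis), both in log2(FPKM + 1), for 12640 genes, each a point, red where the unadjusted interaction p is under 0.05, with the line of equal differences dashed. Most points lie within 0.5 of the centre, the cloud is taller than wide, and Camk2a and 7 further genes lie beyond the axis limit of 1.5.

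After Camk2a, 11 genes with a positive and 12 with a negative interaction of the smallest unadjusted p were looked at as values only, since none passed (limma adjusted p = 0.9992 each). Their interactions ran from 0.29 to 1.02 and, among the negative ones, from -0.27 to -0.51. All 4 Bgn KO fructose libraries lay above the Bgn KO water mean in 11 of the 11 positive genes and below it in 12 of the 12 negative ones. Bgn KO fructose and Bgn KO water did not overlap in 7 and 6 of them, where 3.99% of all genes tested have no such overlap, and WT fructose and WT water did not overlap in 2 and 2 (1.87% of all genes). The genes were picked on this contrast, so these counts describe them and support nothing. Bgn KO fructose replicate 4 was the highest of all 16 libraries in 8 of the 11 and the lowest in 7 of the 12. None of the 23 estimates changed sign in any alternative, which included leaving that library out. As the genes were picked on these same libraries, this too supports nothing.

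Pyurf, which shares its transcript with a subunit gene of glycosylphosphatidylinositol anchor synthesis (GRCm38, chromosome 6, 57686576 to 57692078, minus strand), had the smallest unadjusted p. Its FPKM was 5.48, 4.89, 4.15 and 4.05 in WT water, 4.42, 4.42, 3.64 and 4.46 in WT fructose, 3.42, 2.96, 4.03 and 3.12 in Bgn KO water, and 5.46, 4.83, 4.80 and 5.36 in Bgn KO fructose. Bgn KO water was low, overlapping with WT fructose, and Bgn KO fructose lay wholly above both of these and overlapped with WT water. The interaction was 0.59 (SE 0.13, unadjusted p = 0.000512), made of -0.10 in WT and 0.48 in the knockout. Reads of the shared transcript cannot be told apart, so the gene is uncertain. Its neighbour Herc6, a HERC-family ubiquitin ligase that ends 21.9 kb away (chromosome 6, 57581000 to 57664632, plus strand), had an interaction of 0.59 (SE 0.19) as well. Herc6 was weakly expressed, with 0.602 to 0.817 FPKM in Bgn KO water, 0.997 to 1.86 in Bgn KO fructose and 0.525 to 1.39 in WT.

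Mgat1, the enzyme that opens the synthesis of complex N-glycans (chromosome 11, 49244191 to 49263030), had 14.3, 13.8, 13.8 and 14.1 FPKM in WT water and 13.5, 12.6, 13.7 and 13.6 in WT fructose. It had 13.8, 13.5, 13.5 and 15.1 in Bgn KO water and 16.6, 15.5, 16.1 and 17.9 in Bgn KO fructose. Here both pairs of groups lay apart, WT fructose lower than WT water and Bgn KO fructose higher than Bgn KO water, for an interaction of 0.29 (SE 0.08). Npc2, which hands cholesterol out of lysosomes (chromosome 12, 84754562 to 84773152), had 14.3 to 15.9 FPKM in WT water, 13.0 to 15.5 in WT fructose, 14.3 to 17.5 in Bgn KO water and 18.2 to 25.4 in Bgn KO fructose, with an interaction of 0.47 (SE 0.13). Cd63, a tetraspanin of late endosomes, had 5.28 to 8.59 FPKM in Bgn KO water and 8.39 to 12.8 in Bgn KO fructose, which overlapped, and an interaction of 0.67 (SE 0.20).

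Ptpla, now Hacd1, a dehydratase of very long chain fatty acid synthesis, had 2.30 to 2.84 FPKM in Bgn KO water and 3.28 to 3.84 in Bgn KO fructose, an interaction of 0.47 (SE 0.11). Galk1, galactokinase, had 4.62 to 5.39 and 5.48 to 7.19, an interaction of 0.40 (SE 0.11). Ednrb, the endothelin B receptor, which in brain is found on astrocytes, had 20.0 ± 2.43 and 23.5 ± 1.56 FPKM (SD, n = 4 each), which overlapped, an interaction of 0.37 (SE 0.11). The alpha-tubulin gene Tuba1c had the highest estimate, 1.02 (SE 0.27), at 0.576 to 3.04 FPKM over all libraries, where WT fructose lay wholly below WT water. Tuba1c and the histone gene Hist1h4h (0.57, SE 0.18) have near-identical copies, and the entry with Pbrm1 and Smim4 (0.61, SE 0.18) joins a chromatin remodelling subunit with a small membrane protein, so all 3 are uncertain.

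On the negative side, Rbm5, an RNA-binding regulator of splicing (chromosome 9, 107740371 to 107770996), had the smallest unadjusted p, 0.00129. Its FPKM was 36.4, 38.8, 34.1 and 35.4 in WT water, 39.9, 37.4, 38.2 and 41.1 in WT fructose, 30.7, 30.8, 31.0 and 32.3 in Bgn KO water and 28.3, 26.8, 27.6 and 25.7 in Bgn KO fructose. All Bgn KO fructose libraries lay below all others, and all Bgn KO water libraries below all WT ones, for an interaction of -0.31 (SE 0.08). Smu1, a spliceosome component (chromosome 4, 40736542 to 40757923), had 34.3 to 35.7 FPKM in WT water, 36.4 to 37.3 in WT fructose, 35.4 to 37.7 in Bgn KO water and 27.9 to 34.2 in Bgn KO fructose. Its fructose and water libraries lay apart in both genotypes, in opposite directions, and the interaction was -0.27 (SE 0.08). The splicing factor gene Luc7l3 had -0.42 (SE 0.13), with 33.4 to 42.7 FPKM in Bgn KO water and 27.8 to 34.2 in Bgn KO fructose, which overlapped.

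Sorcs3, a sorting receptor of postsynaptic membranes (chromosome 19, 48206025 to 48805505), had 9.16, 8.60, 9.02 and 9.16 FPKM in WT water and 9.46, 8.66, 8.91 and 9.18 in WT fructose. It had 9.37, 9.33, 8.94 and 8.37 in Bgn KO water and 7.36, 8.01, 6.45 and 6.44 in Bgn KO fructose. Bgn KO fructose was the low group and the other 3 overlapped, for an interaction of -0.32 (SE 0.09). The entry with Kctd16, an auxiliary subunit of GABA-B receptors, had -0.38 (SE 0.11), with 6.97 to 8.55 FPKM in Bgn KO water and 4.97 to 6.66 in Bgn KO fructose. Ddo, the enzyme that degrades D-aspartate (chromosome 10, 40630011 to 40681847), had 4.81 to 5.30 and 2.78 to 4.83 FPKM in these groups and 5.30 to 7.47 in WT, an interaction of -0.51 (SE 0.16).

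The remaining negative genes were Bms1, a factor of ribosome assembly, at -0.30 (SE 0.09), the DNA-binding protein gene Tox4 at -0.33 (SE 0.10), Mina, now Riox2, a ribosomal oxygenase, at -0.30 (SE 0.09), and the zinc finger genes Zfp28 and Zfp946 at -0.34 (SE 0.11) each. The pseudogene Ppp1r2-ps3, at -0.46 (SE 0.15), can share reads with its parent gene and is uncertain. None of the 23 genes passed under any alternative tried, the smallest adjusted p being 0.1223. Their estimates varied over the alternatives, down to 0.10 for Hist1h4h, 0.22 for the entry with Pbrm1, 0.18 for Npc2, -0.092 for Mina and -0.12 for Tox4.

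**Figure D3:**
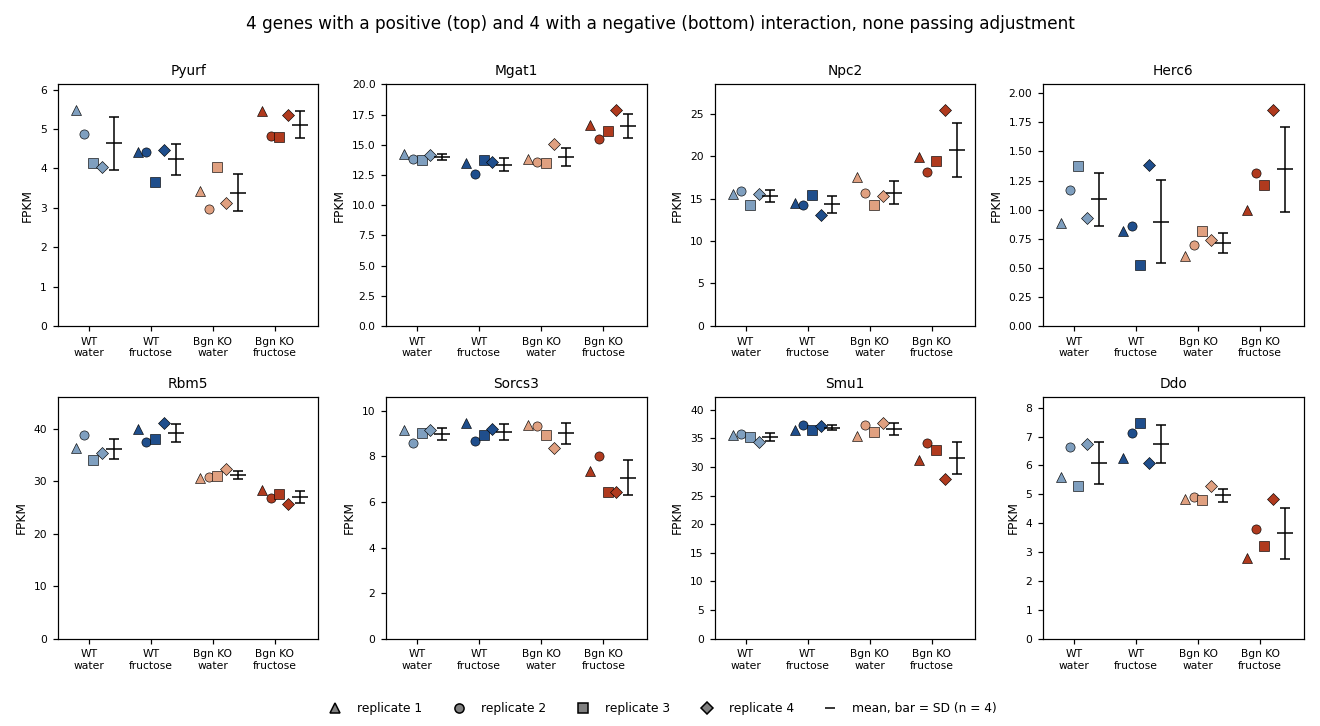
FPKM (vertical axes, from 0) of 8 of these genes in the 4 groups; each symbol is 1 library, its shape the replicate number, and bars are the mean and SD of 4 libraries. In the top row (Pyurf, Mgat1, Npc2, Herc6) the Bgn KO fructose libraries lie above the Bgn KO water ones, and in the bottom row (Rbm5, Sorcs3, Smu1, Ddo) they lie below, with 1 Ddo library overlapping.

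The genes named whatever their values gave no further call. Fmod and Dcn, the relatives of Bgn that encode fibromodulin and decorin, had interactions of -0.17 (SE 0.97) and 0.27 (SE 0.67). Dcn had 5.98 FPKM in the library labelled WT fructose replicate 1 and 41.0 to 46.4 in the other WT fructose libraries, and its estimate was -0.40 without that library. The fructose transporter gene Slc2a5 had -0.11 (SE 0.19), Txnip, an inhibitor of glucose uptake, 0.26 (SE 0.23), Igf1 -0.06 (SE 0.12) and its receptor Igf1r 0.08 (SE 0.10). The growth factor gene Bdnf had -0.05 (SE 0.22), the glucocorticoid target Fkbp5 -0.02 (SE 0.19), and the activity-induced genes Fos and Egr1 0.43 (SE 0.45) and -0.25 (SE 0.27). The complex I subunit gene Ndufs5 was near 0 in the knockout on both drinks (0 to 0.216 FPKM against 9.82 to 14.0 in WT), and its interaction was -0.17 (SE 0.13). With the knockout near 0 on both drinks, that value reflects the WT difference of 0.16 and bears on no response in the knockout. The estimate for Igf1r is among the more precise, with a 95% interval of -0.14 to 0.30. The intervals of Fmod and Dcn are too wide to separate a 2-fold interaction in either direction from none.

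Gene lists were described by how many members lay above 0 and by their median interaction, beside 47.7% above 0 and a median of -0.01 over all 12648 genes. Counts at an unadjusted p under 0.05 stand beside 2.91% of all genes. No member of any of the 26 lists was called other than Camk2a. In bulk tissue, fewer cells of a type and less RNA per cell cannot be told apart.

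The pathways named above as tied to biglycan held no call. In transforming growth factor beta and bone morphogenetic protein signalling 24 of 34 tested genes lay above 0, with a median of 0.10. Of the 34, 3 had an unadjusted p under 0.05 (8.82%, against 2.91% of all genes). These were Id1 (0.55, SE 0.21) and Id3 (0.57, SE 0.22), transcriptional inhibitors induced by this pathway, and Smad6 (0.42, SE 0.16), its feedback inhibitor. Id1 had 15.8, 10.3, 12.5 and 14.2 FPKM in Bgn KO water and 14.3, 15.1, 18.6 and 23.9 in Bgn KO fructose, against 10.6 to 12.9 in WT water and 9.52 to 12.5 in WT fructose. Bgn KO fructose replicate 4 was the highest library for Id1, Id3 and Smad6, and the knockout groups overlapped in each. The list's median was 0.03 without the library labelled WT fructose replicate 1, 0.01 without this library and Bgn KO fructose replicate 4, and -0.02 with the choroid plexus level as a covariate. It was 0.10 in replicates 2 to 4 and 0.13 without Bgn KO water replicate 4.

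Among matrix proteoglycans 21 of 31 lay above 0 (median 0.03, with 1 gene at an unadjusted p under 0.05, the basement membrane proteoglycan Agrn at -0.38, SE 0.18), and among collagens 8 of 17 (median -0.02). The direction of both turned with single libraries. The proteoglycan median was -0.0066 when the library labelled WT fructose replicate 1 was left out and -0.011 without Bgn KO fructose replicate 4, with 14 of 31 above 0 each time, and 0.14 without Bgn KO water replicate 4. The collagen median was -0.11 and -0.12 without the first and the second of these libraries, and 0.10 without the third. The Toll-like receptor and NF-kB pathway had 13 of 24 above 0 and a median of 0.01. Genes of fructose, glucose and glycolysis had 15 of 26 above 0 (median 0.04), and insulin and insulin-like growth factor signalling 10 of 30 (median -0.04). None of the genes of these last 3 lists had an unadjusted p under 0.05. The interaction was 0.17 (SE 0.11) for Slc2a8, a fructose and glucose transporter, and -0.26 (SE 0.17) for Gapdh of glycolysis. It was -0.19 (SE 0.12) for the insulin receptor substrate Irs2.

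Synaptic genes lay mostly below 0 over all libraries, a direction that turned with 3 marker levels as covariates. Of 36 tested glutamate and GABA-A receptor subunits 29 lay below 0, with a median of -0.11. Gria1, an AMPA receptor subunit (chromosome 11, 57011387 to 57330244), had 176, 208, 206 and 205 FPKM in WT water and 232, 218, 225 and 218 in WT fructose. It had 211, 234, 238 and 202 in Bgn KO water and 215, 202, 192 and 174 in Bgn KO fructose. WT fructose lay wholly above WT water while the knockout groups overlapped, for an interaction of -0.35 (SE 0.11, unadjusted p = 0.00776). The NMDA receptor subunit genes Grin2a and Grin2d had -0.27 (SE 0.15) and -0.22 (SE 0.12). Of 39 genes of presynaptic vesicle release 28 lay below 0, with a median of -0.08, with the smallest unadjusted p for the priming factor Unc13a at -0.25 (SE 0.11). The mean level of the receptor list was 4.32 in Bgn KO fructose replicate 4, the lowest of all libraries, and 4.56 to 4.70 in the others. Without Bgn KO fructose replicate 4 its median was -0.04, with 23 of 36 below 0, and that of the presynaptic list was -0.00, with 19 of 39 above 0. In replicates 2 to 4 the receptor median was -0.16, with 29 of 36 below 0. That of the presynaptic list was -0.11 there, with 30 of 39 below 0. With the choroid plexus, meninges and astrocyte levels as covariates the medians were 0.02 for receptors and 0.12 for presynaptic release, with 20 of 36 and 25 of 39 above 0.

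Markers of glia lay mostly above 0 over all libraries. All 17 astrocyte markers lay above 0 with a median of 0.22, 15 of 16 microglia and complement markers with 0.20, and 16 of 18 oligodendrocyte and myelin markers with 0.12. Tmem119, a microglia marker, had 6.73, 6.62, 6.93 and 9.94 FPKM in Bgn KO water and 9.82, 9.32, 10.8 and 11.8 in Bgn KO fructose, with an interaction of 0.39 (SE 0.16). Fgfr3, a receptor of astrocytes, had 27.6, 23.6, 25.5 and 36.4 and then 35.5, 28.2, 36.2 and 40.8, with 0.39 (SE 0.18). Bgn KO water replicate 4 reached the range of the fructose libraries in both genes. The mean astrocyte level was 6.02 to 6.09 in Bgn KO water replicates 1 to 3, 6.49 in replicate 4, and 6.19 to 6.62 in Bgn KO fructose, against 5.96 to 6.11 in WT. The astrocyte median was 0.14 without Bgn KO fructose replicate 4 and 0.33 without Bgn KO water replicate 4, and the microglia median 0.13 and 0.36. With the choroid plexus, meninges and astrocyte levels as covariates, the last of which holds the astrocyte list itself, the medians were -0.01 for astrocytes, -0.04 for microglia and -0.11 for oligodendrocytes.

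The highest median of any list was that of choroid plexus and ependyma, 1.04, with 18 of 21 markers above 0. It was made of -0.55 in WT and 0.49 in the knockout, and 0 of the 21 had an unadjusted p under 0.05. Ttr, the transthyretin gene and its best known product, had 3110, 5957, 2457 and 4134 FPKM in WT water and 212, 4367, 3934 and 2147 in WT fructose. It had 6127, 3697, 4436 and 770 in Bgn KO water and 3024, 6074, 2575 and 8924 in Bgn KO fructose, for an interaction of 1.76 (SE 1.17). Single libraries spanned a wider range than the groups, and the groups overlapped. Aqp1, the water channel of this epithelium, had 1.23 (SE 0.75). The list's median was 0.66 without the library labelled WT fructose replicate 1, 0.70 without Bgn KO fructose replicate 4 and 0.32 without both. It was 0.69 without Bgn KO water replicate 4. In replicates 2 to 4 it was 1.28, with 20 of 21 above 0. Its part in the interactions of other genes was tested only by adding its level as a covariate, which left Camk2a as the 1 call.

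**Figure D4:**
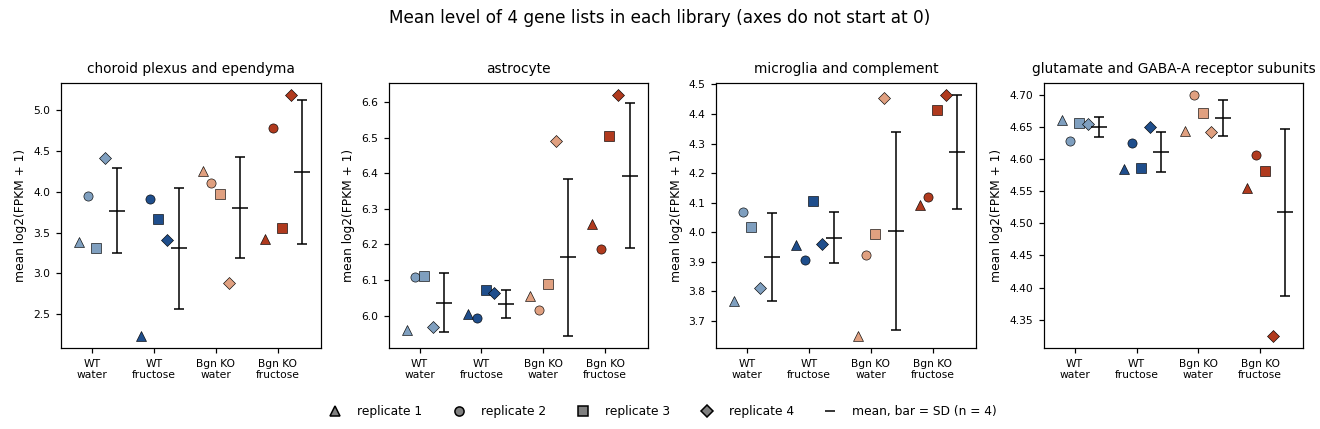
Mean log2(FPKM + 1) over the members of 4 lists (vertical axes, not from 0) in the 4 groups; each symbol is 1 library, its shape the replicate number, and bars are the mean and SD of 4 libraries. Bgn KO fructose replicate 4 is the highest library for choroid plexus (5.19) and astrocyte (6.62) markers and the lowest for receptor subunits (4.32), and the library labelled WT fructose replicate 1 is the lowest for choroid plexus markers (2.23).

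In oxidative phosphorylation 57 of 72 genes lay above 0, with a median of 0.09, made of 0.06 in WT and 0.16 in the knockout. Of the 72, 2 had an unadjusted p under 0.05 (2.78%), a share near the 2.91% of all genes. These were the ATP synthase subunit genes Atp5g1 (0.36, SE 0.13) and Atp5e (0.52, SE 0.21). Of 57 cytosolic ribosomal protein genes 36 lay above 0 with a median of 0.09. An unadjusted p under 0.05 was reached by 4 (7.02%), among them Rpl39 (0.71, SE 0.26), Rps4x (0.40) and Rps25 (0.49). Rpl39 had 10.5, 10.2, 12.3 and 11.2 FPKM in Bgn KO water and 19.3, 13.0, 21.5 and 16.8 in Bgn KO fructose, which did not overlap. The list's median was 0.20 without Bgn KO water replicate 4 and -0.01 with the choroid plexus, meninges and astrocyte levels as covariates, with 25 of 57 above 0. Ribosomal protein genes have many pseudogene copies and are uncertain. Mitochondrial ribosomal proteins had 40 of 73 above 0 and a median of 0.00, and 28 of 73 with -0.04 in replicates 2 to 4.

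The remaining lists had medians between -0.11 and 0.10. Immediate early genes had 16 of 31 above 0 (median 0.00, made of -0.11 in each genotype), the unfolded protein response and heat shock 17 of 31 (0.02), glucocorticoid response 9 of 17 (0.02), the circadian clock 8 of 18 (-0.01) and cholesterol biosynthesis 18 of 23 (0.05). Neurotrophins and CREB had 7 of 24 above 0 (-0.07), with Camk2a as the only call. Markers of hippocampal principal neurons had 5 of 19 above 0 (-0.11, with Wfs1, a marker of CA1, at -0.36, SE 0.16), inhibitory neurons 4 of 16 (-0.06) and striatum 7 of 16 (-0.03). Without Bgn KO fructose replicate 4 these 3 medians were -0.04, 0.02 and 0.02, with 8 of 19, 8 of 16 and 9 of 16 above 0. In replicates 2 to 4 they were -0.13, -0.15 and -0.00. With the choroid plexus, meninges and astrocyte levels as covariates the inhibitory neuron median was 0.18, with 12 of 16 above 0. Under that setting the unfolded protein response had 0.09, the circadian clock 0.10, cholesterol biosynthesis 0.13, and neurotrophins and CREB 0.01. Endothelium and mural cells had 10 of 16 (0.07) and meninges and fibroblasts 11 of 17 (0.10), the latter with a median of -0.45 without Bgn KO fructose replicate 4 and the library labelled WT fructose replicate 1.

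**Figure D5:**
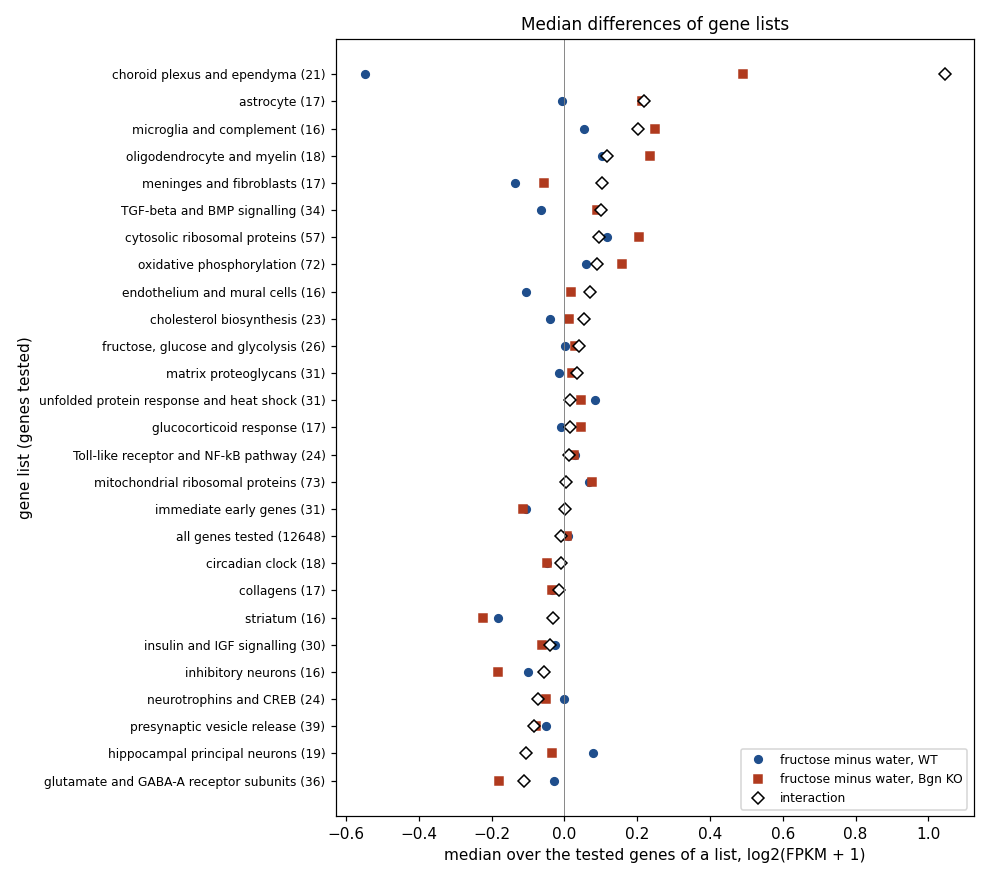
Median over the tested members of each list (their number in parentheses) of the fructose-minus-water difference in WT (circles) and Bgn KO (squares) and of the interaction (diamonds), on the log2(FPKM + 1) scale, ordered by the interaction. Choroid plexus and ependyma stands alone at 1.04, glial markers follow at 0.12 to 0.22, and receptor subunits are lowest at -0.11.

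In replicates 2 to 4 alone, 2 genes passed for the interaction, Camk2a and Scoc, a short coiled-coil protein of the Golgi that takes part in autophagy (chromosome 8, 83430084 to 83458391). Scoc was singled out after its values were seen. It had 22.6, 26.3, 28.6 and 28.3 FPKM in WT water, 44.0, 13.1, 11.9 and 12.5 in WT fructose, 68.0, 43.5, 46.6 and 37.7 in Bgn KO water and 56.7, 41.6, 41.5 and 34.9 in Bgn KO fructose. The library labelled WT fructose replicate 1 lay above WT water and the other 3 WT fructose libraries lay below it. Its interaction was 0.43 (SE 0.44) over all 16 libraries and 0.98 in replicates 2 to 4, with a limma adjusted p of 0.9992 and 0.0290.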

How the data were processed

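Poly-A selected RNA from mouse hippocampus was sequenced by the authors. Per the submitters' processing notes, TopHat, Bowtie, Cufflinks and Cuffdiff were used with mm10; versions, strand setting and normalization are not given in the sources used here. The authors deposited FPKM for 27670 loci, with a column per library, and these values were used. Its 4 columns of group means were not used. FPKM hold no depth, so no counting interval is given, and only the spread between libraries limits precision. Loci without a name, which take 46.8 to 70.4% of a library's FPKM, were left out of the main test. Loci of one name were summed (711 names), and 523 tested entries join several gene names.

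Linear models with moderated variances and a mean-variance trend (limma 3.58.1, R 4.3.3) were fitted to log2(FPKM + 1) with 4 group means and no block. The Benjamini-Hochberg adjustment ran over all 12648 genes at a threshold of 0.05. The scripts were tested on simulated data. The genes, lists and rules were chosen with earlier results of these data known. The text names Bgn, up to 12 genes a direction by call and then by unadjusted p, up to 4 members a list by unadjusted p, and 14 genes whatever their values; genes named Gm or Rik are counted only, and a few selected genes are not reported here. Lists were described by counts and medians with no test. Replicate numbers were checked for pairing by correlating, between libraries of one number, their deviations from the group mean. The correlation was 0.12 to 0.70 between both WT groups and 0.20 to 0.61 between both knockout groups. Over all pairs of groups it was -0.04 to 0.75. Replicate 1 gave the highest value in each of these ranges. Since replicate 1 stood apart in every group, such correlations can arise without pairing. The check therefore cannot decide whether the numbers pair libraries. Gene positions are from GENCODE vM21 (GRCm38, the assembly of mm10), 1-based. Alternatives were other pseudocounts, filters, scalings, weights and covariates, a replicate block, and leaving out libraries.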

Additional observations from a re-analysis of the deposited data

Results flagged for a closer look

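Camk2a was singled out because its fructose differences in the genotypes differ by the test of the interaction itself (10.66 on the log2 scale, a size set by the pseudocount), with all WT fructose libraries listed at 0. Single libraries stood far from the rest of their group in 10 of 184 checks of a gene or marker level in a group, or 5.43%, where chance gives about 1 in 20. Of these, 4 were replicate 1 libraries and 0 were Bgn KO fructose replicate 4. Pyurf was low in WT fructose replicate 3 (3.64 FPKM). Bgn was low in Bgn KO water replicate 1 (4.46 FPKM). Dcn was low in WT water replicate 2 (22.4 FPKM) and in the library labelled WT fructose replicate 1 (5.98), and high in Bgn KO water replicate 2 (49.5). Bdnf was high in the library labelled WT fructose replicate 1 (14.8 FPKM). On the mean log2 scale, astrocyte markers were high in Bgn KO water replicate 4 (6.49), oligodendrocyte and myelin markers high in WT water replicate 2 (5.28), meningeal markers low in the library labelled WT fructose replicate 1 (1.81), and principal neuron markers low in Bgn KO water replicate 2 (4.48).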

How the results depend on the processing

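The count of 1 gene for the interaction, Camk2a, was obtained under every alternative tried except replicates 2 to 4 only, which gave 2 (Camk2a and Scoc). This includes leaving out each library in turn (1 to 1), the replicate block (1), no filter on low values and a filter of 5 FPKM, a pseudocount of 0.1, quantile normalization and the choroid plexus covariate. The replicate block gave 1 gene for fructose in WT and 0 in the knockout, as without it, while the genes at an unadjusted interaction p under 0.05 went from 368 to 1237. Of 16 libraries, 10 correlated best with their own number, which does not decide pairing either, since replicate 1 stood apart in every group. Fructose in WT gave 3 genes in replicates 2 to 4 (BC056474, Camk2a and Scoc). Fructose in the knockout gave 0 genes, but 732 (368 higher and 364 lower) with array weights, which gave replicate 1 libraries 0.287 to 0.376 and Bgn KO fructose replicate 4 0.431; the cause was not tested. With the term for replicate 1, the count of 1024 genes at an unadjusted p under 0.05 ran from 594 without Bgn KO water replicate 2 to 1731 without Bgn KO water replicate 4.

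Of 13 genes named whatever their values, besides Camk2a, 8 changed sign in 37 of 401 values and none passed. Bgn was -0.18 with array weights, -0.27 in replicates 2 to 4, -0.33 with the choroid plexus covariate, -0.011 with 3 marker covariates and -0.45 without the pair of WT fructose replicate 1 and Bgn KO fructose replicate 4. Under the same settings Dcn was -0.0907, -0.26 and -0.26, and -0.45 without the pair. Bdnf was 0.032 with array weights, 0.13 with the choroid plexus covariate, 0.20 with 3 and 0.18 without the pair. With 3 marker covariates Fmod was 0.032, Igf1 0.16 and Txnip -0.12. Slc2a5 was 0.024 in replicates 2 to 4. Leaving out each library in turn gave -0.40 to 0.21 for Bgn, -0.78 to 0.58 for Fmod, -0.40 to 0.52 for Dcn, -0.19 to 0.084 for Bdnf and -0.15 to 0.079 for Fkbp5. The covariates are themselves measured in these libraries and may hold part of an effect.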

Other observations

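Camk2a was 1 of 14 tested genes that were listed at 0 in a whole group. The other 13 were small RNA genes such as Mir137, Mir199b, Snora15 and Snora64, the ribosomal RNA precursor gene Rn45s, the ribonuclease P RNA-like gene Rprl3, Cyp3a41a and Eif3j2, and none passed for the interaction. Mir137, for example, was listed at 5530 FPKM in 1 Bgn KO fructose library and at 0 in the other 15. Rn45s was listed at 373 to 1085 FPKM in the 8 WT libraries and at 0 in the 8 Bgn KO libraries on either drink. Camk2a and Rn45s were the ones of the 14 above 0 in every library of their remaining groups, and whether their zeros are measurements was not tested.

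The 4269 loci without a gene name were tested apart. Of 1232 that passed the filter, 0 were called by limma (smallest adjusted p = 0.347) and 82 had an unadjusted p under 0.05 (6.66%). Their summed FPKM was 412271 ± 33099 (SD, n = 4) in WT water, 481044 ± 114862 in WT fructose, 455891 ± 127326 in Bgn KO water and 700976 ± 174193 in Bgn KO fructose. The Bgn KO fructose libraries ran from 530040 to 867328 and overlapped with Bgn KO water, which ran from 340241 to 597009.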
